A study of Mus musculus with 12 samples.

Results

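Ribosome biogenesis genes are a set of 34 named genes, described here in mouse haematopoietic stem cells (HSCs) from bone marrow and found by symbol among the 35869 genes of the deposited count table. All 34 had a row, and all 34 were among the 19395 genes with enough counts to test. RNA was sequenced from 12 libraries of HSCs that had been sorted by CD41 into positive (CD41pos) and negative (CD41neg) cells, CD41 being the platelet integrin chain encoded by Itga2b. The knockout mice (KO) had the genotype MxCre1+/-,RUNX1f/f and the controls (WT) had MxCre1-/-,RUNX1f/f, so both had floxed alleles of Runx1, which encodes a transcription factor needed for blood development. All mice had been given poly(I:C), an RNA mimic that triggers interferon, in 4 injections, and were studied 4 weeks after it. The 4 groups were CD41pos KO, CD41pos WT, CD41neg KO and CD41neg WT, with 3 libraries each. MxCre1 responds to interferon and is not restricted to HSCs, so other cells of the KO mice can have lost Runx1 too, and the sources used here give no ages. The labels do not say that each library came from a separate animal, so p-values cover only the spread among the libraries, and part of it may be technical.

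Ribosomes are assembled in the nucleolus. RNA polymerase I transcribes a long precursor of ribosomal RNA, which small nucleolar RNA-protein particles (snoRNPs) modify and guide to cleavage, while assembly factors shape the small and the large subunit. The transcription factor Myc is known to activate many of these genes. In HSCs protein synthesis is held low relative to most progenitors, and ribosome output is known to bear on their function.

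Levels are given as CPM, the count of a gene scaled to its library's size after TMM normalisation, and changes as log2 fold changes ± SE from edgeR's quasi-likelihood test, with p-values adjusted by Benjamini-Hochberg over all 19395 genes. A gene passed where its adjusted p was below 0.05. In bulk RNA a lower level can stand for fewer cells of a kind or for less RNA per cell, and these cannot be told apart. Total counts ran from 44108035 to 58946457 per library. Runx1 gene totals were 270.4 to 382 CPM in CD41pos KO against 141 to 159 CPM in CD41pos WT libraries, and 157 to 171 CPM in CD41neg KO against 65.7 to 90.6 CPM in CD41neg WT libraries. They were thus higher in KO, and since the deleted part is not stated, gene totals do not check the deletion. Itga2b was at 551 to 1268 CPM in CD41pos and at 49.6 to 270.1 CPM in CD41neg libraries. All 11 HSC markers listed were detected in every library, with summed levels of 927 to 2363 CPM that differed within groups. The sums were 1966, 1757 and 1932 CPM in CD41pos KO 1, 2 and 3, and 1684, 927 and 1832 CPM in CD41pos WT 1, 3 and 4. They were 2363, 1466 and 2251 CPM in CD41neg KO 1, 2 and 3, and 1862, 1445 and 1176 CPM in CD41neg WT 2, 3 and 4. Among the WT libraries, CD41pos WT 1 and 4 and CD41neg WT 2 and 4 stood apart, with 18.6 to 27.7 CPM of the immediate early gene Nr4a1 against 237 to 396 CPM in the other 8. They carry library numbers up to 6, and WT libraries were all numbered below KO libraries, so the order of libraries and the genotype cannot be told apart. Each KO library held transcripts of either the X-linked Xist or the Y-linked Ddx3y, whereas 4 of the 6 WT libraries, CD41pos WT 3 and 4 and CD41neg WT 2 and 3, held both, with 113 to 339 CPM of Xist and 11.2 to 38.9 CPM of Ddx3y. CD41neg WT 4 held no count of Ddx3y, so the libraries labelled WT 4 did not match in it.

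Set per kilobase of coding sequence, so that genes can be compared, the 34 levels spanned 74.2-fold as means over the 12 libraries. Npm1, the nucleolar chaperone nucleophosmin, was highest at 662 CPM per kb. Ncl, which encodes nucleolin, followed at 564, and Myc at 444 CPM per kb. Among snoRNP genes, Nhp2 was at 428, Nop56 at 286 and Fbl at 265 CPM per kb. The lowest 4 were long genes of the small subunit and of RNA polymerase I, with Heatr1 at 28.5, Rrp12 at 26.2, Polr1a at 20.7 and Utp20 at 8.92 CPM per kb. Npm1 may share reads with its processed pseudogenes, and the sources used here do not say how such reads were counted.

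By library, the summed level of the 34 genes was 7830 to 8019 CPM in CD41pos KO, 7394 to 8076 CPM in CD41pos WT, 8398 to 9465 CPM in CD41neg KO and 9410 to 11590 CPM in CD41neg WT libraries. The CD41neg WT sums overlapped only those of CD41neg KO. CD41neg WT 4 held the highest value of the 12 libraries for 15 members, among them Ncl, Npm1, Myc and Nolc1. CD41neg KO 2 held it for 8 members, all of the polymerase and early small subunit groups, among them Heatr1 and Utp20. CD41pos WT 3 was lowest of the 12 for 15 members and highest for 6 others. The 15 genes had coding lengths of 1527 to 8367 bases, whereas the 6 genes it held highest (Fbl, Gar1, Nhp2, Nip7, Nop16 and Polr1c) had 459 to 1038 bases.

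**Figure D1:**
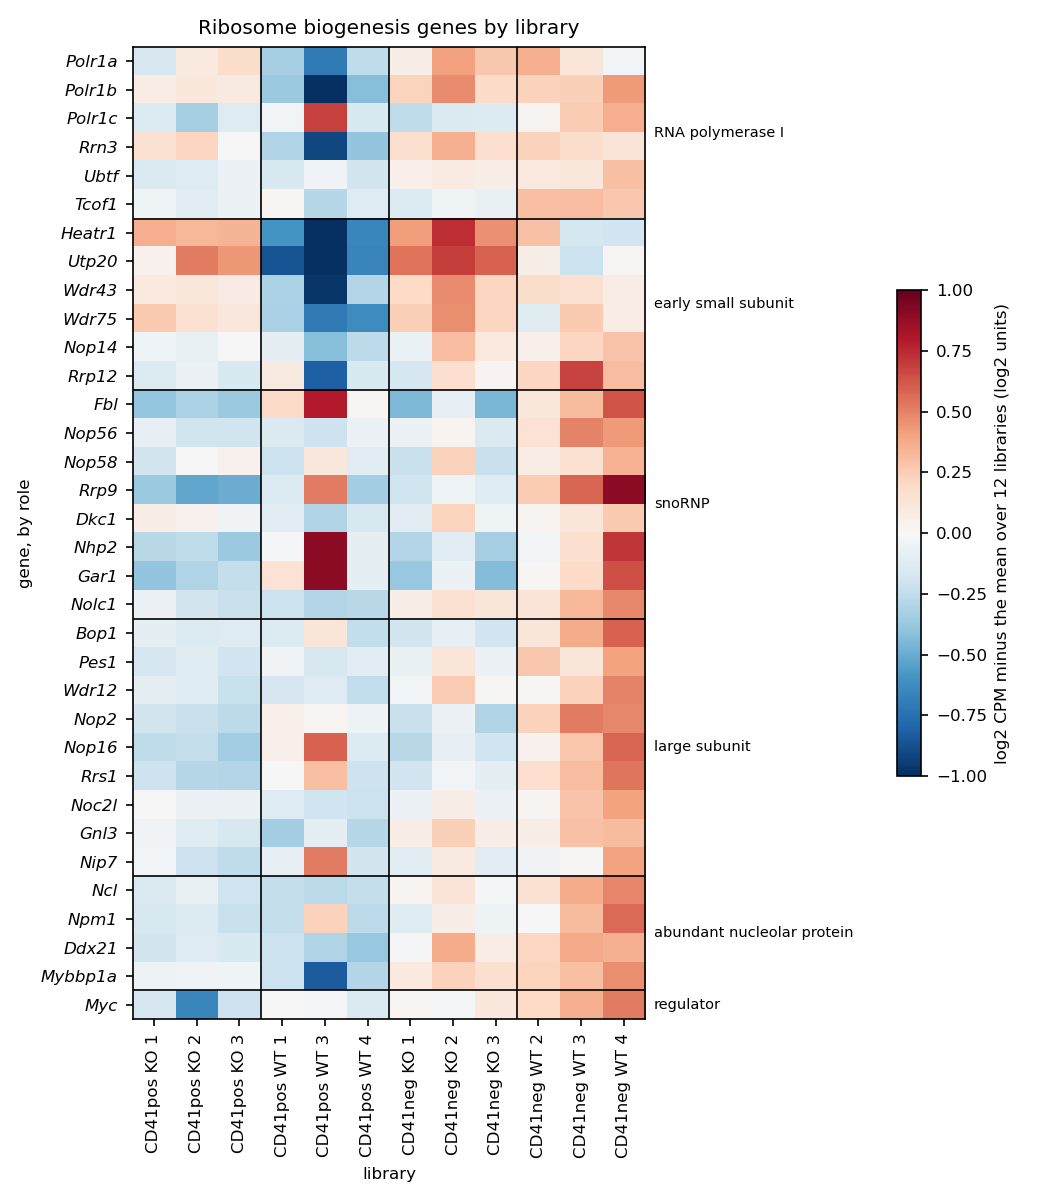
Each row is a gene, grouped by role, and each column a library; colour gives log2 CPM minus the gene's mean over the 12 libraries, in log2 units, limited to -1 and 1. CD41neg WT libraries are mostly above the mean, and CD41pos WT 3 is far below it for long genes such as Heatr1 (69.2 CPM) and far above it for short genes such as Nhp2 (351 CPM).

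The comparison of gates asked how CD41pos HSCs differ from CD41neg HSCs in each genotype. In WT cells ribosome biogenesis transcripts were lower in CD41pos HSCs: 14 of the 34 genes fell and 0 rose (41.2%), where 5.59% of all genes tested passed, 2.72% higher and 2.87% lower. A fit of the 6 WT libraries alone called 0 members, beside 201 genes in all. The median log2 fold change of the members was -0.44, against 0.011 over all genes tested, and 31 of 34 were negative. The 14 came from all roles but Myc: 3 of 6 genes of RNA polymerase I, 4 of 6 early small subunit factors, 2 of 8 snoRNP genes, 2 of 9 large subunit factors and 3 of 4 abundant nucleolar proteins. In 23 genes all 3 CD41pos WT libraries lay below all 3 CD41neg WT libraries, an arrangement that 11.4% of all genes showed. In 0 genes was it the other way round, against 11.4% of all genes.

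Among the abundant nucleolar proteins, Ncl measured 1001, 979 and 1002 CPM in CD41pos WT, against 1308, 1526 and 1651 CPM in CD41neg WT libraries. Its groups did not overlap and its CD41pos libraries were nearly level with each other. The log2 fold change was -0.59 ± 0.099 (adjusted p = 0.00626). Mybbp1a, a nucleolar repressor of transcription that also takes part in ribosomal RNA processing, had 414, 270.5 and 393 CPM in CD41pos WT against 562, 594 and 667 CPM in CD41neg WT libraries, with a log2 fold change of -0.76 ± 0.14 (adjusted p = 0.0109). CD41pos WT 3 was the lowest of its group, and the other 2 CD41pos libraries still lay below every CD41neg library. Ddx21, an RNA helicase that couples polymerase I output to processing, had 144, 135 and 128 CPM in CD41pos WT and 192, 216 and 213 CPM in CD41neg WT libraries, and fell by 0.61 (adjusted p = 0.0122). Npm1 went the same way in its fitted value (-0.39 ± 0.16, adjusted p = 0.172) and did not pass, with overlapping groups.

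Nolc1, a chaperone that accompanies snoRNPs through the nucleolus, measured 294, 278 and 282 CPM in CD41pos WT, against 373, 429.8 and 476 CPM in CD41neg WT libraries. Its CD41pos libraries were close together and below every CD41neg library, and the log2 fold change was -0.58 ± 0.11 (adjusted p = 0.00958). Nop56, a core protein of box C/D snoRNPs, had 443, 425 and 472 CPM in CD41pos WT against 541, 691 and 658 CPM in CD41neg WT libraries (-0.50 ± 0.11, adjusted p = 0.0229). The other snoRNP genes did not pass. Fbl, the methyltransferase of the same particles, had a fitted value near 0 (0.0081 ± 0.20), as did the box H/ACA proteins Nhp2 (0.016 ± 0.25) and Gar1 (0.075 ± 0.23), the 3 with adjusted p-values of 0.99, 0.983 and 0.894.

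For RNA polymerase I, Polr1b, which with Polr1a forms the catalytic core, measured 118, 63.8 and 114 CPM in CD41pos WT and 179.8, 180.5 and 206 CPM in CD41neg WT libraries. The log2 fold change of -0.94 ± 0.19 was the most negative of the 34 (adjusted p = 0.0169), and CD41pos WT 3 was far below the other CD41pos libraries. Rrn3, the initiation factor that brings the polymerase to the ribosomal DNA promoter, had 79.3, 52.0 and 74.5 CPM in CD41pos WT against 115, 111 and 107 CPM in CD41neg WT libraries (-0.69 ± 0.15, adjusted p = 0.0217). Its groups did not overlap either. Tcof1, whose product treacle supports polymerase I transcription, also fell (-0.42 ± 0.10, adjusted p = 0.0326). Polr1a (-0.58 ± 0.16, adjusted p = 0.0537) and Ubtf, the factor that keeps ribosomal DNA open (-0.30 ± 0.097, adjusted p = 0.0935), did not pass.

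Among early small subunit factors, Utp20 had 38.1, 31.5 and 43.5 CPM in CD41pos WT, against 72.2, 59.7 and 69.7 CPM in CD41neg WT libraries. The groups were well apart, with a log2 fold change of -0.83 ± 0.16 (adjusted p = 0.0109). Heatr1 (-0.81 ± 0.19, adjusted p = 0.0283), Wdr75 (-0.63 ± 0.14, adjusted p = 0.0232) and Wdr43 (-0.63 ± 0.16, adjusted p = 0.039), which like Utp20 belong to the small subunit processome, fell as well. Nop14 and Rrp12 of this role did not pass (adjusted p = 0.0648 and 0.0771). Of the large subunit factors, Noc2l (-0.43 ± 0.11, adjusted p = 0.0367) and the nucleolar GTPase Gnl3 (-0.46 ± 0.11, adjusted p = 0.0368) fell. Pes1, Bop1 and Wdr12, which form a complex needed to process the large subunit's RNA, had log2 fold changes of -0.37, -0.45 and -0.44 without passing. The other 8 members did not pass either: Dkc1 (-0.33), Rrp9 (-0.55), Nop58 (-0.26), Rrs1 (-0.30) and Nop2 (-0.40) had negative values beyond their SE, and Nip7 (-0.021) and Nop16 (-0.12) were within their SE of 0, as was the shared polymerase subunit Polr1c (-0.005).

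**Figure D2:**
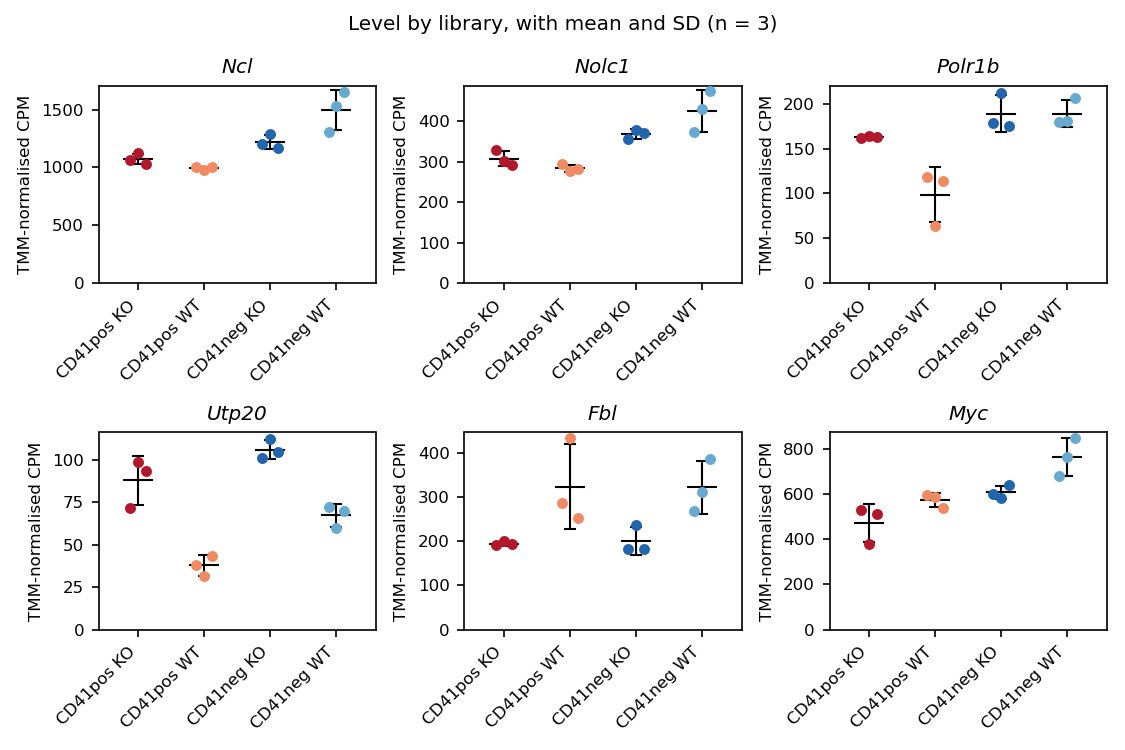
TMM-normalised CPM of 6 members in the 12 libraries, 1 point per library, with the mean and SD of each group (n = 3). Ncl and Nolc1 lie higher in both CD41neg groups, Utp20 lies higher in KO than in WT of each gate, and the 3 CD41pos WT points of Fbl are spread from 252 to 433 CPM.

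In KO cells 0 of the 34 genes passed between gates by edgeR's test, where 2.79% of all genes did, 1.56% higher and 1.23% lower. A fit of the KO libraries alone called 2 members, beside 1505 genes in all. Of the members, 3 had an unadjusted p below 0.05, beside 2615 of the 19395 genes tested. DESeq2 called 0 members, beside 1241 genes in all. When the KO libraries were paired by animal label, 0 members passed and genes called numbered 156 in place of 541. The fitted values were small and mostly negative: 31 of 34 were below 0, with a median of -0.15 against -0.023 over all genes tested. In 16 genes the CD41pos KO libraries lay below the CD41neg KO libraries without overlap, against 14.1% of all genes. In 0 genes they lay above, against 15.7% of all genes. Myc had the smallest adjusted p of the 34. It measured 529, 377 and 513 CPM in CD41pos KO and 602, 584 and 639 CPM in CD41neg KO libraries. The groups did not overlap, with CD41pos KO 2 the lowest of all 12 libraries, but the change of -0.36 ± 0.13 did not pass (adjusted p = 0.215). In WT, Myc had 595, 587 and 536 CPM in CD41pos and 682, 763 and 849 CPM in CD41neg libraries (-0.42 ± 0.13, adjusted p = 0.0875). Ncl measured 1065, 1120 and 1029 CPM in CD41pos KO and 1201, 1290 and 1171 CPM in CD41neg KO libraries, again without overlap (-0.19 ± 0.098, adjusted p = 0.464). By the interaction test these gate differences were not shown to differ between the genotypes. Without the 4 WT libraries that stood apart, 1 member passed between the KO gates.

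**Figure D3:**
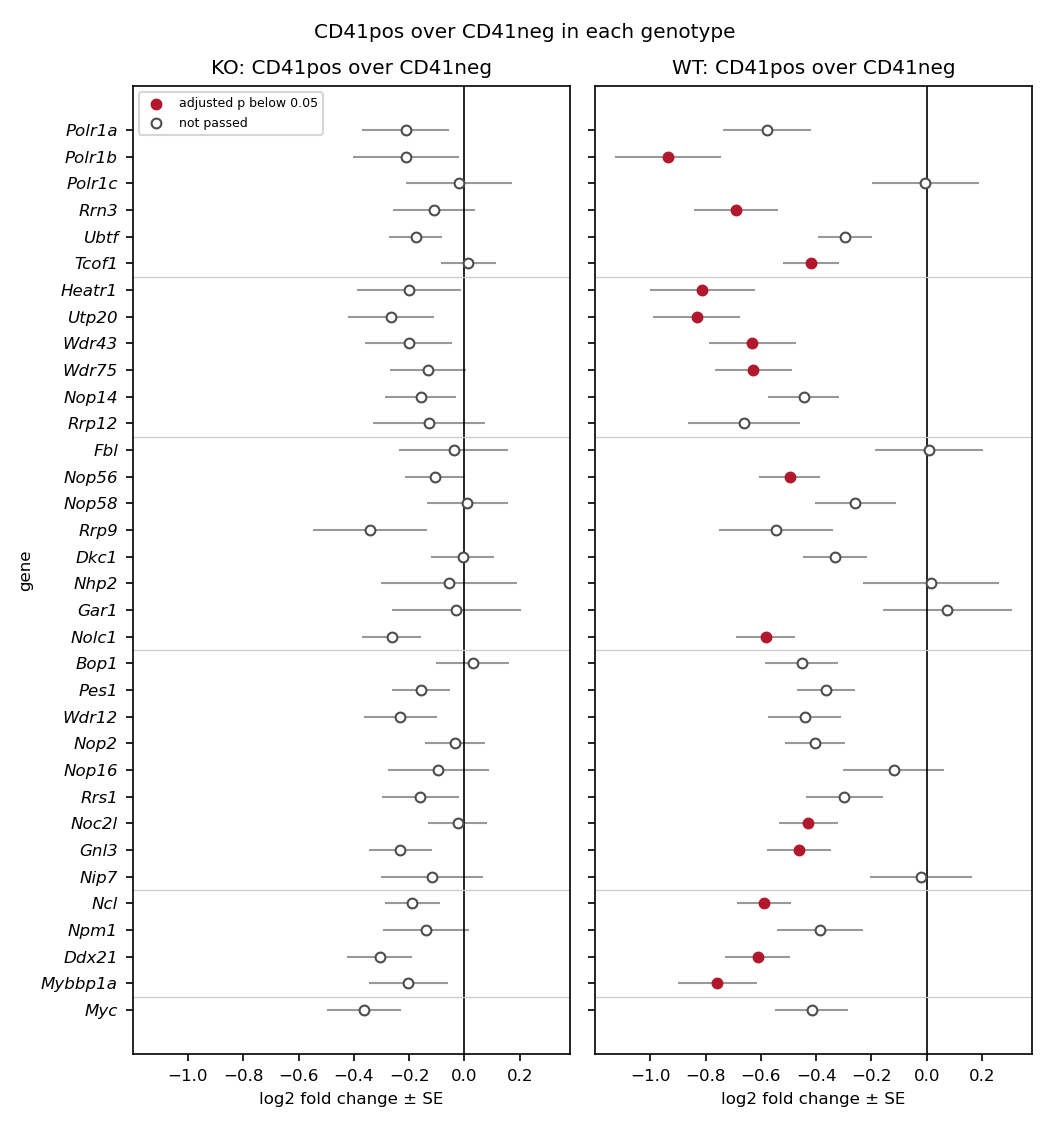
Log2 fold change ± SE of CD41pos over CD41neg for each member, in KO on the left and in WT on the right, with genes in role order; filled points passed at an adjusted p below 0.05. In WT 14 points are filled and all lie below 0, and in KO 0 are filled, in the fit of all 12 libraries. Fits of each genotype alone called 0 members in WT and 2 in KO.

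Erythroid marker transcripts moved with the gate as well. Their sum over 6 genes was 538 to 792 CPM in CD41pos KO and 866 to 1513 CPM in CD41pos WT, against 1598 to 1935 CPM in CD41neg KO and 2505 to 3305 CPM in CD41neg WT libraries. In CD41pos against CD41neg HSCs 3 of the 6 markers fell in KO and 4 in WT, with Car1 at -2.18 ± 0.24 in KO and -1.72 ± 0.23 in WT. B and plasma cell markers summed to 627, 113 and 512 CPM in CD41pos WT 1, 3 and 4 and to 3151, 321 and 2557 CPM in CD41neg WT 2, 3 and 4. Megakaryocyte and platelet markers went the other way, at 529.8 to 727 CPM in CD41pos and 51.7 to 110.2 CPM in CD41neg libraries over both genotypes, with 5 of 6 higher in KO and 6 of 6 in WT. So did granulocyte and monocyte markers, at 1798 to 4093 CPM in CD41pos KO and 5132 to 6449 CPM in CD41pos WT, against 458 to 1115 CPM in CD41neg KO and 1637 to 2771 CPM in CD41neg WT libraries, with 3 of 6 higher in KO and 4 of 6 in WT. The part of these cells' RNA in the gate difference of the members was not tested. Without CD41neg WT 4, 6 of 34 members fell in WT, beside 460 genes called in all in place of 1084. Members that fell were 8 without CD41neg WT 3, 9 without CD41pos KO 3 and 19 without CD41pos WT 3. Over the fits that left out 1 library, genes called in all ran from 460 to 1200. Ncl, Nolc1, Utp20, Mybbp1a and Ddx21 passed in all 12 fits that left out 1 library, and Polr1b in 11. Without the 4 WT libraries that stood apart each gate keeps 1 WT library, whose spread cannot be estimated.

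The promoters of members that fell together in CD41pos WT are shown to give the sequence context. Windows from 250 bases before to 50 bases after the annotated start were matched by symbol in RefSeq on GRCm38.p6 for 27 of the 34 genes. Of the genes that fell, Ncl, Nolc1, Utp20 and Mybbp1a had the smallest adjusted p among those with a window, and Heatr1 was added outside this order. Capitals mark matches, on either strand, to the E-box CACGTG (the letters Myc and its partner Max bind), the ETS core CCGGAAG or the RUNX core TGTGGT. The windows below are those of Ncl (chr1:86359406-86359705, minus strand), Nolc1 (chr19:46075597-46075896, plus strand), Utp20 (chr10:88826765-88827064, minus strand), Mybbp1a (chr11:72441077-72441376, plus strand) and Heatr1 (chr13:12395125-12395424, plus strand), each read 5′ to 3′ along the gene.
Ncl: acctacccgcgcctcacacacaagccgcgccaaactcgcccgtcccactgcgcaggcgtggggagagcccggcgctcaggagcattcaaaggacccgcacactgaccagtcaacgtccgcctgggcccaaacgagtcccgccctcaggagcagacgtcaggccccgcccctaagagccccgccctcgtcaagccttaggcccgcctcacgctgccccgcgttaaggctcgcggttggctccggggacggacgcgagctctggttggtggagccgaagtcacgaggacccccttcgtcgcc
Nolc1: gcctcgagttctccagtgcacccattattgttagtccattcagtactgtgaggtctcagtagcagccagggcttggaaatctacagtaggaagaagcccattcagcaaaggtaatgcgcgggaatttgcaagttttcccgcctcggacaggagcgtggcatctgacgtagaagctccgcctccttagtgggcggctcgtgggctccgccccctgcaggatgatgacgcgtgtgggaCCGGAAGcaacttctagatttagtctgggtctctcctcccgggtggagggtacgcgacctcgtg
Utp20: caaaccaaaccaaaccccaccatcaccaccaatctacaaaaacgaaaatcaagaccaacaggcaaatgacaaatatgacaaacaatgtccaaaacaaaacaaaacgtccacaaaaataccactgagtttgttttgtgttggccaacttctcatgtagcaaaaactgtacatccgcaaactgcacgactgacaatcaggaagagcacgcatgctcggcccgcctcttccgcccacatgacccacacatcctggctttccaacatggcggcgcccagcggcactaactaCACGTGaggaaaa
Mybbp1a: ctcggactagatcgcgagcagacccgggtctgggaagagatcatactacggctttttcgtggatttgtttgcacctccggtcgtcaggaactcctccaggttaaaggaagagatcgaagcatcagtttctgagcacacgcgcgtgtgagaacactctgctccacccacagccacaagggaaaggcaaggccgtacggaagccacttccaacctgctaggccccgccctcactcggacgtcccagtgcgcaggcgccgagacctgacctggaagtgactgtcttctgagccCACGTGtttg
Heatr1: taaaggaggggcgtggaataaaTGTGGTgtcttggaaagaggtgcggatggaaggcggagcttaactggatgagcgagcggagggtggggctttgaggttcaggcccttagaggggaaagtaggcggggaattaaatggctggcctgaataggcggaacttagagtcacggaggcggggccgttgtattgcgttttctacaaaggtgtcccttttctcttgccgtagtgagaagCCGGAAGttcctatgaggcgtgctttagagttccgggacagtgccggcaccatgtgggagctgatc
In Utp20 and Mybbp1a the E-box begins 37 and 40 bases downstream of the start. In Nolc1 and Heatr1 the ETS letters begin 14 and 16 bases upstream of it, and the RUNX letters of Heatr1 lie 228 bases upstream. The Ncl window holds no match to these letters.

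Over the 27 windows the E-box stood in 6 (22.2%), those of Mybbp1a, Nop2, Pes1, Rrn3, Utp20 and Wdr43, beside 10.7% of the 13513 windows of genes tested. The ETS letters stood in 9 (33.3%), beside 16.2%, and the RUNX letters in 3 (11.1%), beside 16.3%. Those 3 were Heatr1, Nop56 and Pes1. The palindromic core of the NRF1 motif stood in 0, beside 1.87%. The E-box is its own reverse complement and was counted by position, and none of the searched letters contains another. Of the 13 genes with a window that fell in CD41pos WT, 4 held an E-box, and of the other 14 members 2 did. A match is a description of these letters only.

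The comparison of genotypes asked how KO differed from WT HSCs in each gate. In CD41pos HSCs 7 of 34 members passed (20.6%), close to the 17.1% of all genes tested. Of the 7, 6 were higher and 1 lower in KO, where 9.79% of all genes were higher and 7.27% lower. The median log2 fold change was 0.045, against -0.082 over all genes tested, and the signs were mixed, with 20 positive and 14 negative. All 6 early small subunit factors had positive values and 4 of them rose. Both other genes that rose belong to RNA polymerase I, and the gene that fell was Fbl. In 13 genes the KO libraries lay above the WT libraries without overlap and in 8 below, against 21.9% and 22.4% of all genes.

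Utp20 had 71.5, 98.7 and 93.5 CPM in CD41pos KO, against 38.1, 31.5 and 43.5 CPM in CD41pos WT libraries. Heatr1, the human homologue of which is needed for polymerase I transcription and early processing, had 219.5, 215 and 216 CPM in CD41pos KO, against 113, 69.2 and 108 CPM in CD41pos WT libraries. In both genes every KO library was well above every WT library. The log2 fold changes were 1.22 ± 0.16 (adjusted p = 0.00201) for Utp20 and 1.16 ± 0.19 (adjusted p = 0.0039) for Heatr1. Wdr75 measured 109, 101 and 98.6 CPM in CD41pos KO and 72.6, 55.6 and 58.8 CPM in CD41pos WT libraries (0.72 ± 0.14, adjusted p = 0.00752). Its groups were apart too, and these 3 genes passed in all 12 fits that left out 1 library. Wdr43 measured 269, 272 and 265 CPM in CD41pos KO and 202, 128 and 204 CPM in CD41pos WT libraries (0.59 ± 0.16, adjusted p = 0.026), with CD41pos WT 3 far below the rest.

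Of RNA polymerase I, Rrn3 had 109, 114 and 97.2 CPM in CD41pos KO and 79.3, 52.0 and 74.5 CPM in CD41pos WT libraries (0.64 ± 0.15, adjusted p = 0.0163). Polr1b had 161, 164 and 163 CPM in CD41pos KO and 118, 63.8 and 114 CPM in CD41pos WT libraries (0.72 ± 0.19, adjusted p = 0.0253). The KO libraries of Polr1b were nearly level, and again CD41pos WT 3 was lowest. Fbl had 191, 199.9 and 193 CPM in CD41pos KO, against 286, 433 and 252 CPM in CD41pos WT libraries, and fell by 0.73 (adjusted p = 0.0266), with CD41pos WT 3 far above the rest. Gar1, Nhp2 and Rrp9 had values of -0.69, -0.63 and -0.52 without overlap of the groups and did not pass (adjusted p = 0.0618, 0.0911 and 0.0969). Myc was 473 ± 83.1 CPM in CD41pos KO and 573 ± 31.9 CPM in CD41pos WT libraries. Ncl was 1071 ± 45.8 CPM in CD41pos KO and 994 ± 13.2 CPM in CD41pos WT (SD, n = 3 each), and neither it nor Myc passed (adjusted p = 0.457 and 0.155). Members called were 3 without CD41pos KO 1 or without CD41pos KO 2, 4 without CD41pos KO 3 and 12 without CD41pos WT 4. With a term for the 4 WT libraries that stood apart they were 14, of which 8 higher and 6 lower. Without those libraries the gate keeps 1 WT library, whose spread cannot be estimated.

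In CD41neg HSCs 5 of 34 members passed (14.7%), beside 7.82% of all genes tested. Of the 5, 1 was higher and 4 lower in KO, where 3.85% of all genes were higher and 3.97% lower, and with log2(TPM + 1) in limma 0 were higher and 4 lower. The signs were mainly negative, at 28 of 34, with a median of -0.26 against -0.026 over all genes tested. All 9 large subunit factors and all 8 snoRNP genes had negative values. In 16 genes the KO libraries lay below the WT libraries without overlap, against 17.0% of all genes, and in 3 above, against 18.5%. These 3 were the processome genes Utp20, Wdr43 and Heatr1.

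Nop2, a methyltransferase of the large subunit's ribosomal RNA, had 197, 220.3 and 186 CPM in CD41neg KO, against 268, 328 and 319.6 CPM in CD41neg WT libraries. The groups were well apart, and it fell by 0.60 (adjusted p = 0.00991). Bop1 had 205, 219.9 and 203 CPM in CD41neg KO and 253, 301 and 349.9 CPM in CD41neg WT libraries (-0.53 ± 0.13, adjusted p = 0.0343). Nop56 had 472, 501 and 445 CPM in CD41neg KO and 541, 691 and 658 CPM in CD41neg WT libraries (-0.42 ± 0.11, adjusted p = 0.0403). Neither gene's groups overlapped, and the WT libraries were spread more widely than the KO libraries. Tcof1 had 192, 205 and 200.4 CPM in CD41neg KO and 259.9, 262 and 255 CPM in CD41neg WT libraries (-0.38 ± 0.10, adjusted p = 0.041). It was tight in both groups. Utp20 was the member that rose, with 101, 112 and 104 CPM in CD41neg KO and 72.2, 59.7 and 69.7 CPM in CD41neg WT libraries (0.65 ± 0.16, adjusted p = 0.0282).

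Rrp9 (adjusted p = 0.0519) and Fbl (adjusted p = 0.0522) lay just outside the threshold. Ncl, which was above WT in CD41pos KO libraries, was below it in CD41neg KO, with 1201, 1290 and 1171 CPM in CD41neg KO against 1308, 1526 and 1651 CPM in CD41neg WT libraries, and did not pass in either gate (here -0.29 ± 0.098, adjusted p = 0.0856). Myc had 602, 584 and 639 CPM in CD41neg KO and 682, 763 and 849 CPM in CD41neg WT libraries and did not pass (-0.33 ± 0.13, adjusted p = 0.138). The count moved with single libraries. Members called were 0 without CD41neg KO 3 and 1 without CD41neg KO 1, CD41neg KO 2, CD41neg WT 3 or CD41neg WT 4. They were 2 without any 1 of the 3 CD41pos KO libraries and 14 without CD41pos WT 3. Genes called in all moved as well, from 367 without CD41neg KO 3 to 3852 without CD41pos WT 3, against 1517 with all 12 libraries. Nop2 passed in 11 of the 12 fits that left out 1 library, Utp20 in 7, Bop1 in 4, and Nop56 and Tcof1 in 3 each. Without the 4 WT libraries that stood apart the gate keeps 1 WT library, whose spread cannot be estimated.

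Markers of other cells differed between genotypes in both gates. Basophil and mast cell markers summed to 112 to 119 CPM in CD41pos KO and 227 to 604 CPM in CD41pos WT, and to 48.0 to 103 CPM in CD41neg KO and 99.2 to 509.8 CPM in CD41neg WT libraries, with 3 of 5 markers lower in KO of each gate. Of these, Prss34 and Mcpt8, which define basophils, were below 1 CPM in every KO library. The other 2, Cpa3 and Ms4a2, had positive values and did not pass, in CD41pos (1.05 ± 0.39 and 1.03 ± 0.36, adjusted p = 0.0784 and 0.0676) and in CD41neg HSCs (1.03 ± 0.39 and 0.49 ± 0.36, adjusted p = 0.118 and 0.419). Granulocyte and monocyte markers summed to 1798 to 4093 CPM in CD41pos KO and 5132 to 6449 CPM in CD41pos WT, and to 458 to 1115 CPM in CD41neg KO and 1637 to 2771 CPM in CD41neg WT libraries. In each gate 4 of these 6 were lower in KO and all 6 had negative values, with medians of -1.30 in CD41pos and -1.55 in CD41neg HSCs. Stroma and endothelium markers summed to 77.2 to 84.2 CPM in CD41pos KO and 178 to 379 CPM in CD41pos WT, and to 59.3 to 85.0 CPM in CD41neg KO and 139 to 762 CPM in CD41neg WT libraries, with 4 of 6 lower in CD41pos and 5 of 6 in CD41neg KO. Of 5 B and plasma cell markers 1 was lower in CD41pos and 2 in CD41neg KO. Their part in the members' genotype differences was not tested.

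**Figure D4:**
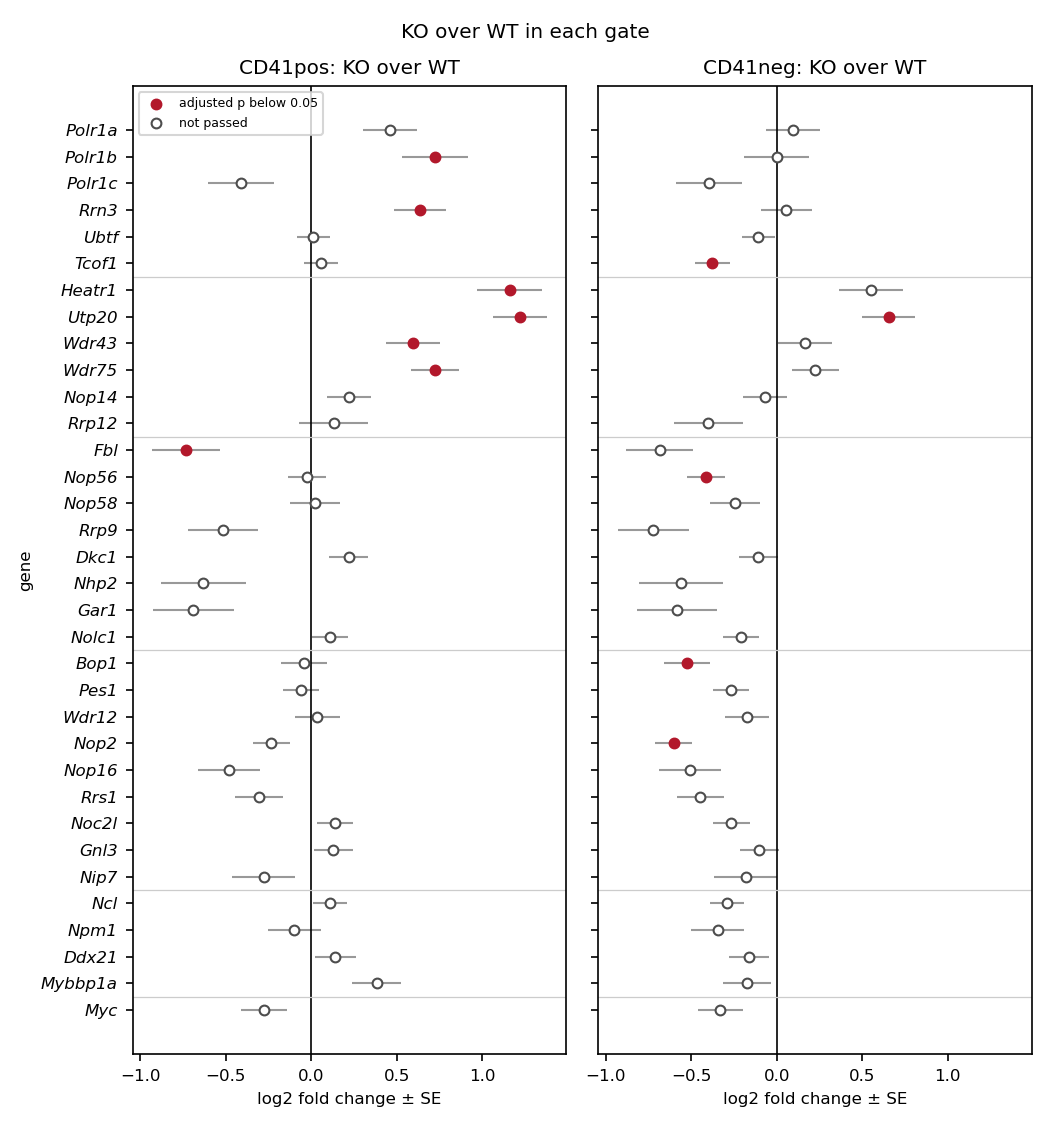
Log2 fold change ± SE of KO over WT for each member, in CD41pos HSCs on the left and in CD41neg HSCs on the right, with genes in role order; filled points passed at an adjusted p below 0.05. In CD41pos 7 points are filled, 6 above and 1 below 0, and in CD41neg 5 are filled, of which only Utp20 lies above 0.

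Whether the genotype difference depended on the gate was tested as the interaction, the KO minus WT difference in CD41pos minus that in CD41neg HSCs. By edgeR's test 0 of 34 members and 0 of all genes passed (0%), while 12 members and 1093 of all genes had an unadjusted p below 0.05, and DESeq2 called 0 members and 67 genes. The fitted interaction was positive for 29 of 34, with a median of 0.31 against -0.022 over all genes tested. It went with coding length: the 17 longer members were all positive (median 0.43), and 12 of the 17 shorter ones were (median 0.205). Tcof1 (0.43 ± 0.14, adjusted p = 0.791) and Ncl (0.40 ± 0.14, adjusted p = 0.827) had the smallest p-values among members. Polr1b had the largest value, 0.72 ± 0.27 (adjusted p = 0.845), and Myc was at 0.053 ± 0.19. Without the 4 WT libraries that stood apart, which leaves 1 WT library per gate, the members' median was 0.45, against 0.064 over all genes tested.

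The members' changes went with their coding length, which ran from 459 bases in Nhp2 to 8367 bases in Utp20, with a median of 1999.5 against 1386 in coding genes tested. Across the 34 genes the Spearman correlation of coding length with the log2 fold change was 0.79 for KO over WT in CD41pos and 0.55 in CD41neg HSCs. It was -0.25 for CD41pos over CD41neg in KO and -0.76 in WT. Across 10329 coding genes of at least 5 CPM the same 4 values were 0.44, 0.32, -0.051 and -0.31, so the relation was not confined to the members. For the interaction the correlation was 0.81 across the 34 genes and 0.36 across those coding genes. The genes share their libraries and are not independent, and the comparisons share groups. By library, the fitted level at 5000 coding bases was lowest in CD41pos WT 3 (-0.53 log2 units), between -0.25 and -0.0034 in the other 5 WT libraries and between 0.15 and 0.27 in the 6 KO libraries.

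With that trend removed in each library, Utp20 was still higher in CD41pos KO than WT (0.69 ± 0.11, adjusted p = 0.00294), as were Heatr1 (0.66 ± 0.14, adjusted p = 0.00868), Rrn3 and Wdr43. Fbl, Nop2 and Tcof1 were lower, and the median of the members turned to -0.18. In CD41neg HSCs 9 members were then lower and 0 higher, with Utp20 no longer called. In WT CD41pos over CD41neg all 34 values were negative and 9 passed, among them Utp20 (-0.73 ± 0.11, adjusted p = 0.00214), Polr1b (-0.79 ± 0.14, adjusted p = 0.0062) and Mybbp1a (-0.60 ± 0.11, adjusted p = 0.00903), and no longer Ncl or Nolc1. With each gene's longest transcript in place of its coding length, 22 members fell in WT, so this count depends on the length measure. Removing the coding length trend did not remove all of the members' relation with coding length. Their Spearman correlation was then 0.27 for KO over WT in CD41pos and 0.10 in CD41neg HSCs. It was -0.16 for CD41pos over CD41neg in KO, -0.495 in WT and 0.54 for the interaction. The trend fits were added after seeing the data, and what made the libraries differ by length was not tested.

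**Figure D5:**
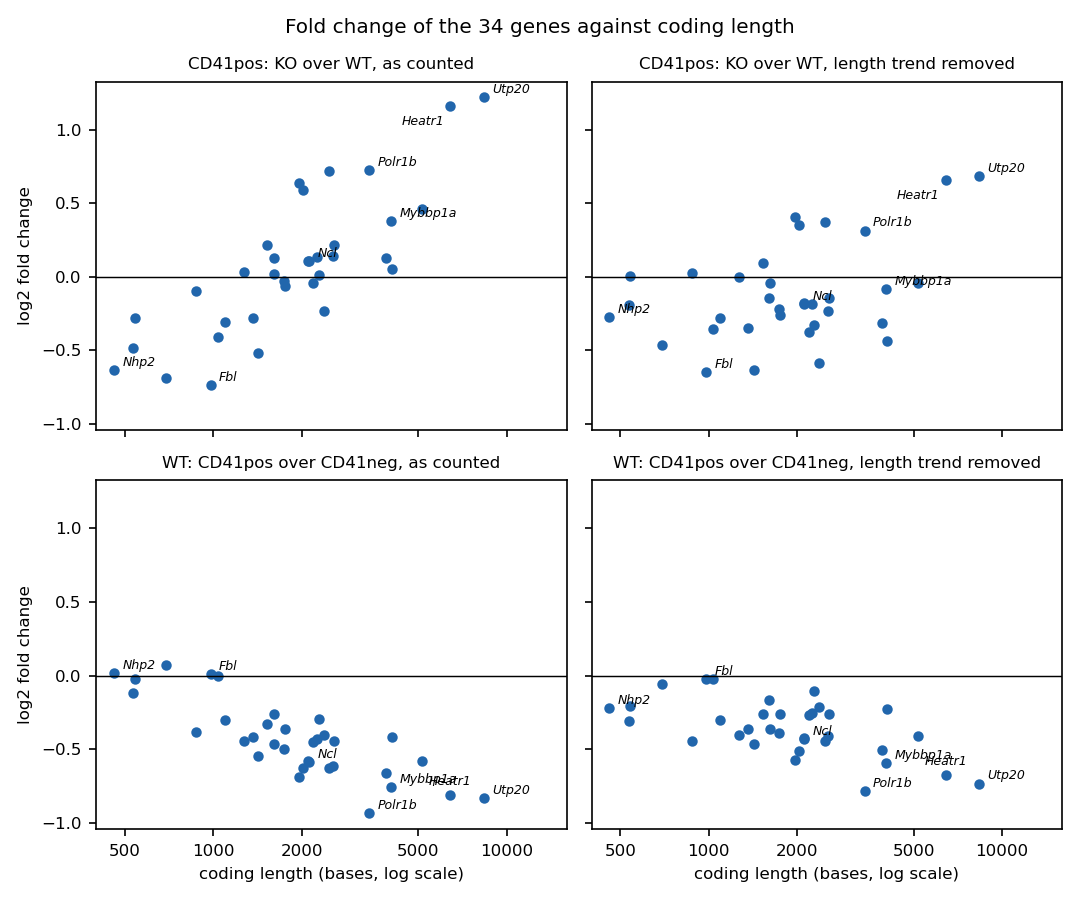
Log2 fold change of the 34 genes against coding length in bases (log scale), for KO over WT in CD41pos HSCs (top) and CD41pos over CD41neg in WT (bottom), as counted (left) and with the per-library length trend removed (right); each point is a gene. Long genes such as Utp20 are highest at the top left and lowest at the bottom left, and all 34 points are below 0 at the bottom right.

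Other genes of the pathway were taken from lists apart from the 34. These lists too were chosen with earlier results of these data known and use the same libraries, so they are not independent of the members' results. No length trend was removed from the list values given here and in the next paragraph. In WT CD41pos against CD41neg HSCs 12 of 47 other small subunit factors fell and 0 rose (25.5%, median -0.28), beside 5.59% of all genes called, with Nol10 at -0.82 ± 0.13 (adjusted p = 0.00492) and Utp4 at -0.61 ± 0.11 (adjusted p = 0.00773). Of 51 other large subunit factors 9 fell and 0 rose (17.6%, median -0.34), led by the export adaptor Nmd3 at -0.69 ± 0.10 (adjusted p = 0.00324) and the polynucleotide kinase Nol9 at -0.73 ± 0.12 (adjusted p = 0.00612). Of 15 other genes of RNA polymerase I and its factors 1 fell, Taf1c, with a median of 0.036, and 0 of 12 other snoRNP genes and 1 of 23 nuclease and exosome genes passed. In KO 0 of the 47 and 0 of the 51 passed between gates.

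For KO against WT in CD41pos HSCs 9 of the 47 small subunit factors rose and 1 fell, and 7 of the 51 large subunit factors rose and 4 fell, with medians of 0.018 and 0.027. These shares of 21.3% and 21.6% were near the 17.1% of all genes called. Ddx10 rose (0.77 ± 0.15, adjusted p = 0.00743) and Sbds, which acts late in large subunit maturation, fell (-0.60 ± 0.11, adjusted p = 0.00521). Of 15 other genes of RNA polymerase I and its factors 0 rose and 1 fell (6.67%), with 12 negative and a median of -0.41. Of 12 other snoRNP genes 1 rose and 0 fell (8.33%), with 10 negative and a median of -0.31. Of 23 nuclease and exosome genes 3 rose and 2 fell (21.7%), with 16 negative and a median of -0.24. In CD41neg HSCs 4 of the 47 (8.51%) and 5 of the 51 (9.80%) fell and 0 rose, near the 7.82% of all genes called. Among them were Tbl3 (-0.65 ± 0.13, adjusted p = 0.0127) and Ddx54 (-0.62 ± 0.099, adjusted p = 0.00628). The polymerase, snoRNP and nuclease lists had medians of -0.20, -0.27 and -0.23 there, with 1, 2 and 0 genes called. Of 12 genes of the Myc network 2 passed in CD41pos (16.7%) and 1 in CD41neg KO (8.33%), near the 17.1% and 7.82% of all genes. Mga, which competes with Myc for Max, rose in CD41pos (0.95 ± 0.13, adjusted p = 0.00201) and in CD41neg KO (1.02 ± 0.13, adjusted p = 0.00222). Mxd4 fell in CD41pos KO (-0.74 ± 0.22, adjusted p = 0.0363). A checkpoint links disturbed ribosome assembly to the tumour suppressor Trp53. Of its 6 tested genes 2 passed in CD41pos (33.3%) and 1 in CD41neg HSCs (16.7%), beside 17.1% and 7.82% of all genes. Mdm4 rose in both gates (1.04 ± 0.21 and 0.91 ± 0.21, adjusted p = 0.00838 and 0.0229) and Mdm2 in CD41pos (0.81 ± 0.21, adjusted p = 0.0242). Cell cycle genes moved with the genotype in CD41pos HSCs, where 13 of 34 rose and 2 fell (44.1%), beside 17.1% of all genes called and 9.79% higher, with Top2a at 1.12 ± 0.13 (adjusted p = 0.00185) and Mki67 at 1.02 ± 0.13 (adjusted p = 0.00201). In CD41neg HSCs 2 of the 34 rose and 1 fell (8.82%), beside 7.82% of all genes, and whether the gates differed in this was not shown, as 0 of the 34 passed the interaction. The summed cell cycle level was 10220 to 10600 CPM in CD41pos KO and 7834 to 8737 CPM in CD41pos WT libraries, and its part in the members' changes was not tested. Across coding genes KO over WT values went with coding length (Spearman 0.44 in CD41pos and 0.32 in CD41neg HSCs). The part of length in the changes of all these lists, Mga, Mdm4, Top2a and Mki67 among them, was not tested.

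The 34 genes lie on 19 chromosomes, and 6 of them (17.6%) hold snoRNA genes within their span, 19 in all, against 1.6% of 14574 coding genes tested. These hosts were Ncl, Nop56, Dkc1, Nop58, Wdr43 and Gnl3, with 5 snoRNA genes in Nop56 and 4 in Nop58. Whether their reads came partly from the snoRNAs cannot be told from gene totals. The library kit does not mark strand, and 14 members overlap a gene on the other strand, among them Heatr1 (Lgals8 and Gm5928), Mybbp1a (Spns2), Nop56 (Idh3b) and Bop1 (Mroh1 and Scx), so reads of such pairs cannot be told apart. Utp20 spans chromosome 10 from 88746607 to 88826804 on the minus strand and Ncl chromosome 1 from 86344719 to 86359400 on the minus strand in GRCm38 (mm10), and neither overlaps another annotated gene on the other strand.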

How the data were processed

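RNA of sorted HSCs was extracted with a miRNeasy Micro kit and made into libraries with a SMART-Seq kit for low input, per the labels' protocols; the kit does not mark strand. The submitters' processing notes name FastQC 0.11.7, cutadapt 1.9.1, STAR 2.6.1e, featureCounts 1.6.2 and mm10. For settings and annotation release the sources used here give no value. The authors deposited raw counts per gene, the basis of every main test, and TPM values, used as an alternative unit and, for 27 gene names turned into dates in the count table, as the source of the name.

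The 19395 of 35869 genes kept by filterByExpr entered 1 edgeR 4.0.16 quasi-likelihood fit (R 4.3.3) of 4 group means over 12 libraries with TMM scaling; p-values were two-sided and adjusted by Benjamini-Hochberg. Counts limit precision by library, and total counts are given above. The 34 members and the 17 other lists were chosen with earlier results of these data known. Every member may be named, with library values for up to 8 members per comparison with the smallest adjusted p and for Myc, and up to 4 genes per other list. Nr4a1, Ddx3y and Xist were named after their values were seen. No replicate pair held identical values.

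Same-labelled KO libraries deviated together over 11386 genes (correlations 0.47, 0.63 and 0.47), and they matched in Xist and Ddx3y. Deviations were taken from means of 3 libraries, and KO libraries of different labels were not compared across gates. These values thus do not show that each KO label pairs the gates. Alternatives were DESeq2 1.42.0, its size factors, other filters, limma 3.58.1 on log2 TPM, blocks, covariates, leaving out libraries and, added after seeing the data, length trends (lowess of log2 CPM on length, removed as an offset). The fit was also run on simulated counts. These were drawn independently around overall means, without the length trends or the KO pairing, so they do not check the calls given here. Coding lengths and positions come from GENCODE on GRCm38. Levels between genes are CPM per kb of coding length.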

Additional observations from a re-analysis of the deposited data

How the results depend on the processing

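Counts below are of the 34 members and of all genes, with the median log2 fold change of the members, for KO against WT in CD41pos and in CD41neg HSCs, CD41pos against CD41neg in KO and in WT, and the interaction. As reported, members called were 7, 5, 0, 14 and 0 and genes called 3309, 1517, 541, 1084 and 0. Values that did not move by over 1.5 times, or medians that moved by less than the spread between libraries, are not listed.

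DESeq2 called 8 members and 2983 genes in CD41neg, 1241 genes between KO gates, 23 members and 2299 genes between WT gates, and 67 genes in the interaction. Fits of only the groups compared called 3 members and 2154 genes in CD41pos, 2 members and 1505 genes between KO gates, and 0 members and 201 genes between WT gates. With limma on log2(TPM + 1) the medians were 0.25 in CD41pos and -0.092 in CD41neg, 7 genes passed the interaction, and the CD41pos calls were 1674 higher and 763 lower, against 1899 and 1410 as reported. With log2(TPM + 0.1) they were 0.26 and -0.092, with 2090 genes in CD41pos and 26 in the interaction. In both, CD41neg members called were 0 higher and 4 lower. The median of all genes shifted by 0.13 and 0.19 in CD41pos and by 0.15 in CD41neg (log2(TPM + 0.1)) under TPM, by 0.12 in CD41neg under DESeq2, by 0.10 there with no low-count filter, and by 0.12 in CD41pos without the 4 WT libraries. With no low-count filter 2 genes passed the interaction. With a Y-linked covariate 3 members passed in CD41neg. The cause of these changes was not tested.

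Giving the 4 early-numbered WT libraries a term of their own called 14 members in CD41pos and 8 in CD41neg. Without these libraries the calls were 21 members and 7639 genes in CD41pos, 11 members in CD41neg, 1 member and 1474 genes between KO gates, 4811 genes between WT gates with a median of -0.52, and 13 members and 3467 genes in the interaction with a median of 0.45; the lone WT library of each gate is then assumed to vary like the others.

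Length trends were fitted in 4 ways, all after seeing the data. With coding length and only coding genes tested, 9 members passed in CD41neg and 9 between WT gates, and medians were -0.18 in CD41pos, -0.33 in CD41neg, -0.36 between WT gates and 0.17 in the interaction. With the other genes kept, 9 passed between WT gates, and medians were -0.19, -0.33, -0.36 and 0.17. With the transcript of the longest coding part, 9 members passed in CD41neg and 19 between WT gates, and the CD41pos median was -0.11. With the longest transcript, 8 passed in CD41neg and 22 between WT gates, and the CD41pos median was -0.10.

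With the replicate number as a block, which KO and WT libraries share only as a number, calls were 3 members and 957 genes in CD41pos, 1 member (higher, the balance of directions thus turned round) and 458 genes in CD41neg, 328 genes between KO gates, and 4 members and 378 genes between WT gates. A fixed block for animal label, which pairs the KO gates but shares only 2 labels between the WT gates (correlations of deviations 0.15 for WT 3 and -0.47 for WT 4, whose libraries differ in the Y-linked Ddx3y at 22.4 CPM in CD41pos and 0 CPM in CD41neg), gave 0 members and 42 genes between WT gates (median -0.54), 156 genes between KO gates, and 1 gene in the interaction (median 0.42). The label as a random effect had a correlation of -0.013 and moved no count by over 1.5 times.

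Leaving out each library in turn, members called ran from 3 to 12 in CD41pos, 0 to 14 in CD41neg, 0 to 0 between KO gates, 6 to 19 between WT gates and 0 to 0 in the interaction. Genes called ran from 1010 to 4270, 367 to 3852, 199 to 1094, 460 to 1200 and 0 to 2, and medians from 0.035 to 0.096, -0.30 to -0.17, -0.19 to -0.075, -0.51 to -0.37 and 0.24 to 0.43. The interaction of Myc, which never passed, turned to -0.035, -0.0091 and -0.029 in 3 of these fits, and to -0.011 in both coding length fits.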
